A study of Mus musculus with 9 samples.

Results

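De novo fatty acid synthesis, the cytosolic pathway that turns carbohydrate carbon into fatty acids, was followed through 9 genes in mouse epididymal adipose tissue during weight loss. The genes were chosen by name: *Slc25a1*, *Acly*, *Acss2* and *Aacs*, which supply acetyl-CoA or related units, *Acaca* and *Acacb*, the acetyl-CoA carboxylases, *Fasn*, the fatty acid synthase, and *Thrsp* and *Pnpla3*, which accompany the pathway without catalysing one of its steps. Each matched 1 row of a table of 56748 genes, and all 9 passed the filter on low counts, as did 18510 genes in all. The tissue came from wild-type (WT) male C57BL/6J mice, put on high-fat diet (HFD) when 8 weeks old and kept on it for 8 weeks. One phase was sampled at that point (Pre), and the others after a further 1 week (WL1) or 2 weeks (WL2) of standard diet (SD). Each phase had 3 libraries, and the mice were then 16, 17 and 18 weeks old by the protocol. No library of mice kept on HFD beyond Pre was analysed here, so weeks of SD and age cannot be told apart. The labels number the samples of a phase without saying that each is a separate animal, so the p-values measure the spread between these samples.

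In this pathway, citrate leaves the mitochondria through the carrier *Slc25a1* and is cleaved to acetyl-CoA by ATP citrate lyase, *Acly*. *Acss2* makes acetyl-CoA from acetate in the cytosol, and *Aacs* activates the ketone body acetoacetate so that its carbon can enter lipid synthesis. Acetyl-CoA carboxylase converts acetyl-CoA to malonyl-CoA, which *Fasn* joins into palmitate. *Acaca* encodes the cytosolic carboxylase, whereas the product of *Acacb* sits at the mitochondrial outer membrane, where malonyl-CoA restrains the entry of fatty acids into oxidation. In adipose tissue and liver, insulin and carbohydrate are known to raise transcription of these genes through SREBP-1c and ChREBP.

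Promoter windows are shown for members lower than Pre in both SD phases. Each is the 250 bases before the transcription start in RefSeq on GRCm38.p6, written 5′ to 3′ on the strand of the gene. Windows of all 9 members were matched. The 4 printed were chosen after values were seen, from members lower than Pre in both SD phases. They share no base with the member's own gene in GENCODE M21, and the other 5 windows reach into it. Those of *Acaca* and *Acacb* lie wholly inside it, with all 250 bases, and are kept in the counts of all 9 members. Capitals mark matches to any of 4 motifs, searched on both strands: GGGCGG (GC box), CCAAT (Y box), CACGTG (E box) and TCACNCCAC (a sterol regulatory element).
Fasn (chr11:120824548-120824797, minus strand): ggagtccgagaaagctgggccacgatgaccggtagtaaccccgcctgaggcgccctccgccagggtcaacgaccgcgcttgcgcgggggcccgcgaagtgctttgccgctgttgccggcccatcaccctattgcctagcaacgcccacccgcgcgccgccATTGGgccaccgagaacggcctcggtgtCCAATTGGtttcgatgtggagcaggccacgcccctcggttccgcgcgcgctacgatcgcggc
Pnpla3 (chr15:84167566-84167815, plus strand): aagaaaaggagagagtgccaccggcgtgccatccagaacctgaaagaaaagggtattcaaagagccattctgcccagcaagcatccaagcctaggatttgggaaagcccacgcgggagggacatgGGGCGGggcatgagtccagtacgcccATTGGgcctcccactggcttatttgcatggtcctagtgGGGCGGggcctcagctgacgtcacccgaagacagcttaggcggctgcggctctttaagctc
Slc25a1 (chr16:17928220-17928469, minus strand): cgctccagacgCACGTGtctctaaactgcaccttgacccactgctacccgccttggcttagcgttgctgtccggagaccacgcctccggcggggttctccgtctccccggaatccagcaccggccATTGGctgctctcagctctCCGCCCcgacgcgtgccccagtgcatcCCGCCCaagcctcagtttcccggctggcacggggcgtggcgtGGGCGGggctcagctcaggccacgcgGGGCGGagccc
Acly (chr11:100528001-100528250, minus strand): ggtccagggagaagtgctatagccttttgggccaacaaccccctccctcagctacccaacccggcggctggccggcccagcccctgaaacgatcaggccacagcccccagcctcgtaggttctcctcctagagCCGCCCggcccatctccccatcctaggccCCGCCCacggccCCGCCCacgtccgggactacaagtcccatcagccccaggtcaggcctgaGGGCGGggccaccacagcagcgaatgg
The *Fasn* window held 3 Y boxes, of which 2 overlapped by sharing bases, and no GC box. The window of *Acly* held 4 GC boxes and no Y box, *Pnpla3* had 2 GC boxes and 1 Y box, and *Slc25a1* had 4 GC boxes, 1 Y box and 1 E box. Among all 9 members, 6 windows had a Y box, against 33.8% of the 32851 windows in the reference, 4 had a GC box against 32.7%, 1 had the E box against 6.02%, and 0 had TCACNCCAC against 1.05%. These counts describe letters in a window and say nothing of binding.

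The libraries held 16434450 to 22729072 counts. Levels are given as CPM, the reads of a gene per 1000000 reads of its library, with library totals adjusted by TMM factors. The test was the quasi-likelihood F-test of edgeR, and a gene was called at a Benjamini-Hochberg adjusted p below 0.05 over all 18510 genes. Of all genes, 482 were called higher and 868 lower in the first week. From Pre to WL2 these numbers were 620 and 1233, and from WL1 to WL2 they were 242 and 439. These totals moved with single libraries. On leaving out each library in turn, genes called in either direction ranged from 512 to 1500 at WL1 against Pre (1350 with all libraries), from 743 to 1688 for Pre and WL2 (1853), and from 37, without WL2 replicate 2, to 1351, without WL2 replicate 1, for WL1 and WL2 (681). With library totals in place of TMM these were 1002 and 642, 1495 and 836, and 307 and 385, and the median of all genes shifted to 0.12, 0.158 and 0.049 on the log2 scale. Scaled to a list of 10 adipocyte genes, they were 1631 and 253, 228 and 843, and 93 and 3301, with medians of 0.357, -0.067 and -0.412. Adipocyte genes marked every library, with summed levels of 26300 to 34100 CPM at Pre, 19800 to 26500 at WL1 and 28500 to 33200 at WL2. Epididymis genes summed to at most 0.174 CPM. Pre replicate 2 stood apart, with 161 CPM of lymphocyte genes against 4.07 to 15.5 in the other libraries.

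After 1 week of SD, transcripts of nearly the whole pathway were lower. Of the 9 members, 8 passed the test downward at WL1 against Pre, where 4.69% of all genes did so (2.6% upward, 7.29% in either direction), and the median of the members was -1.35 on the log2 scale against 0.02 over all genes. *Fasn* fell 5.14-fold, *Pnpla3* 4.66-fold, *Acss2* 3.62-fold and *Thrsp* 3.14-fold. At WL2 against Pre, 7 members passed downward and 1, *Acacb*, upward, where 6.66% and 3.35% of all genes did (10% in all), with a median of -0.77 against 0.01. The libraries of Pre did not overlap with those of WL1 or with those of WL2 in any of the 9 members, which held for 28.7% and 30.9% of all genes. Both comparisons use the same Pre libraries. Without Pre replicate 2, 8 members were called in each. In whole tissue, fewer cells of a type and less RNA per cell cannot be told apart.

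**Figure D1:**
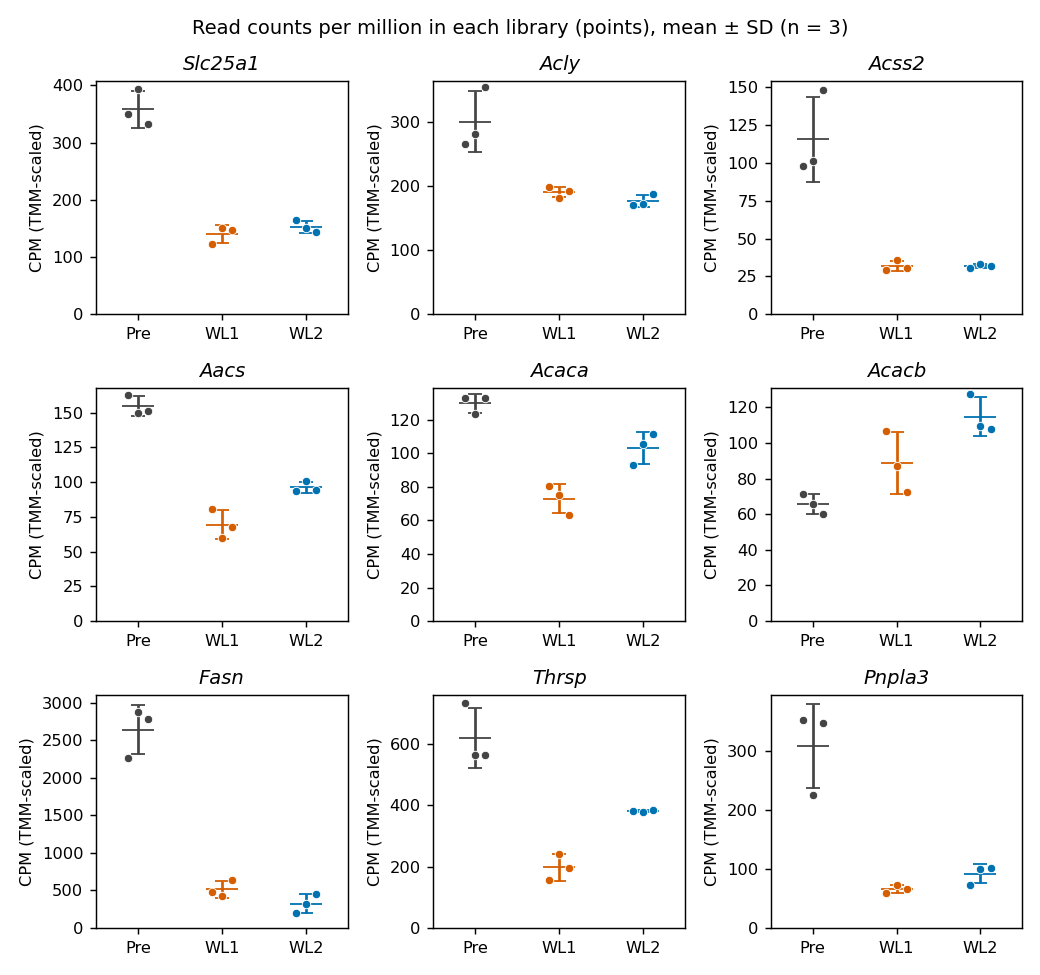
CPM on TMM-scaled library sizes of the 9 members in each library (points), with the mean ± SD of 3 libraries per phase, each panel with its own axis from 0. Libraries of Pre lie above those of WL1 and WL2 in every panel except *Acacb*, where they lie below.

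The citrate carrier *Slc25a1* (ENSMUSG00000003528, chromosome 16, 17743087 to 17746083, minus strand in the authors' table) stood at 349, 394 and 332 CPM at Pre, at 123, 151 and 147 at WL1 and at 164, 151 and 143 at WL2. It was low in all 6 libraries taken on SD, and the ranges of WL1 and WL2 overlapped. The log2 fold change was -1.35 ± 0.12 (SE) at WL1 (adjusted p = 0.000347) and -1.23 ± 0.12 at WL2 (adjusted p = 0.000191). *Acly*, the enzyme that cleaves the exported citrate (ENSMUSG00000020917, chromosome 11, 100367179 to 100418826, minus strand), fell less. Its libraries held 265, 281.7 and 355 CPM at Pre, 198.5, 182 and 192 at WL1, and 171, 172 and 187.5 at WL2. The highest library on SD was thus below the lowest at Pre. The log2 fold changes were -0.65 ± 0.12 (adjusted p = 0.0134) at WL1 and -0.77 ± 0.12 (adjusted p = 0.00368) at WL2. Without WL1 replicate 2, the change of *Acly* at WL1 was -0.62 and its adjusted p 0.053.

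*Acss2*, the acetate-using enzyme (ENSMUSG00000027605, chromosome 2, 155359868 to 155427644, plus strand), held 97.8, 101 and 148 CPM at Pre, 29.1, 35.8 and 30.9 at WL1, and 30.9, 33.4 and 31.7 at WL2. The libraries of both SD phases lay within 1 narrow range. Their means were each 27.6% of the Pre mean, and the difference between WL2 and WL1 was 0.00 ± 0.16 on the log2 scale (adjusted p = 0.999). The fold change against Pre was -1.86 ± 0.16 in both phases (adjusted p = 0.000347 at WL1 and 0.000103 at WL2). *Acss2* overlaps *Gss* on the opposite strand, on which 373 to 629 reads were counted per library against 536 to 3208 on *Acss2*. Without a stated strand setting of the counting, reads of the 2 genes cannot be told apart. *Aacs*, which activates acetoacetate (ENSMUSG00000029482, chromosome 5, 125552878 to 125594474, plus strand), took a different course. It went from 163, 150.1 and 151.5 CPM at Pre to 81.0, 60.1 and 67.4 at WL1 and stood at 93.8, 101 and 94.6 at WL2. All WL2 libraries were above all WL1 libraries and below all Pre libraries. Its log2 fold change was -1.16 ± 0.12 at WL1 (adjusted p = 0.000726) and -0.68 ± 0.12 at WL2 (adjusted p = 0.00567), while the difference of 0.47 ± 0.12 between WL2 and WL1 had an adjusted p of 0.0566. That difference passed without Pre replicate 2 (0.47, adjusted p = 0.047) or without WL1 replicate 1 (0.60, adjusted p = 0.0416).

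Of the carboxylases, *Acaca* fell in the first week and *Acacb* was above Pre at WL2. *Acaca*, which makes the malonyl-CoA used for synthesis (ENSMUSG00000020532, chromosome 11, 84020498 to 84292477, plus strand), held 133, 123 and 133 CPM at Pre, 80.6, 74.9 and 63.5 at WL1 and 93.0, 106 and 112 at WL2. The WL2 libraries were between the other phases, overlapping neither. The log2 fold change was -0.83 ± 0.12 at WL1 (adjusted p = 0.00343) and -0.33 ± 0.12 at WL2, which did not pass (adjusted p = 0.106). *Acacb*, the mitochondria-bound form (ENSMUSG00000042010, chromosome 5, 114284596 to 114388822, plus strand), was at 71.1, 65.7 and 60.0 CPM at Pre, at 107, 86.9 and 72.4 at WL1 and at 127.5, 109 and 108 at WL2. Every library on SD was above every Pre library, although the lowest WL1 library was only just above. Its difference of 0.44 ± 0.15 at WL1 did not pass (adjusted p = 0.103), and at WL2 it rose by 0.81 ± 0.15 (adjusted p = 0.00737), a 1.75-fold change.

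On FPKM, the deposited values scaled by gene length, the ratio of *Acacb* to *Acaca* was 0.948, 0.944 and 0.799 in the Pre libraries, 2.35, 2.06 and 2.02 at WL1 and 2.43, 1.83 and 1.71 at WL2. By FPKM, *Acaca* was the more abundant of the 2 transcripts in each Pre library, and *Acacb* in each library on SD. Which of the 2 stands higher depends on the deposited gene lengths, 17074 bases for *Acaca* and 9632 for *Acacb*. By CPM, *Acaca* was above *Acacb* in WL2 replicate 3 (112 against 108). The mean ratio was 2.39-fold higher at WL1 and 2.2-fold higher at WL2 than at Pre. The ratio was chosen after these values were seen and was not tested.

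**Figure D2:**
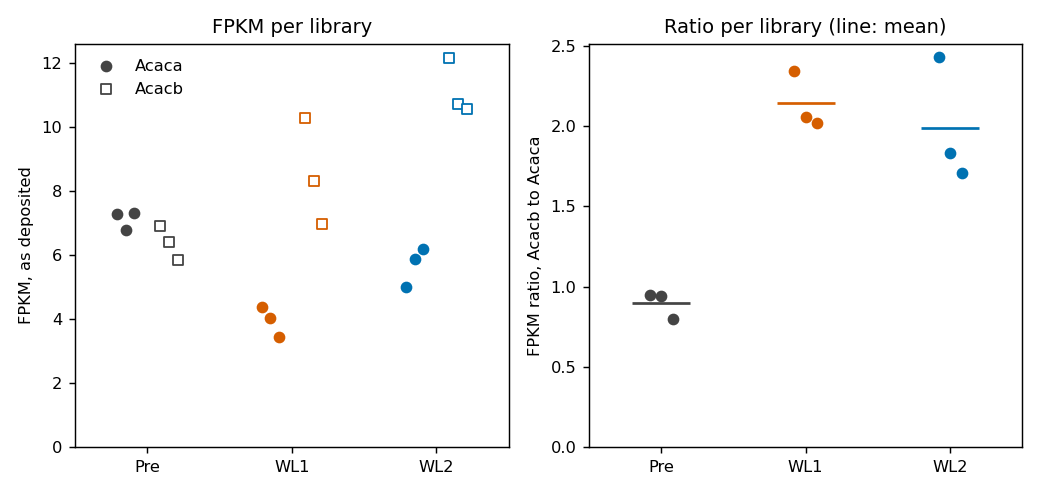
Left, deposited FPKM of *Acaca* (filled circles) and *Acacb* (open squares) in each of 3 libraries per phase; right, their ratio in each library, with a line at the mean. The ratio lies between 0.799 and 0.948 at Pre and between 1.71 and 2.43 in the libraries on SD.

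*Fasn* (ENSMUSG00000025153, chromosome 11, 120696672 to 120715373, minus strand) was the member with the most reads at Pre and the largest fall in both comparisons with Pre. It held 2265, 2871 and 2788 CPM at Pre, 479.7, 419 and 642 at WL1, and 194, 321 and 449 at WL2. The highest library on SD thus stood far below the lowest at Pre. The log2 fold change was -2.36 ± 0.28 at WL1 (adjusted p = 0.00135) and -3.04 ± 0.29 at WL2 (adjusted p = 0.000156), or 5.14-fold and 8.22-fold lower. Among all genes tested, 1.44% had a lower log2 fold change at WL1 and 1.51% at WL2. The WL2 mean was below that of WL1 by 0.68 ± 0.27 on the log2 scale, but the libraries overlapped and the difference did not pass (adjusted p = 0.179). *Fasn* also became less even between libraries: its highest WL2 library was 2.32 times its lowest, against 1.27 times at Pre.

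Reads of *Fasn* were 51.2%, 60.1% and 57.2% of the reads of the 9 members at Pre, 36.5%, 31.7% and 43.4% at WL1, and 14.6%, 21.8% and 27.9% at WL2. The members together took 0.413% to 0.465% of all counts at Pre, 0.133% to 0.147% at WL1 and 0.136% to 0.17% at WL2. The share of the group in the library was thus below Pre in all 6 libraries on SD. Within the group the share of *Fasn* was lower in each WL2 library than in any WL1 library.

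*Thrsp* encodes Spot 14, a small nuclear and cytosolic protein of lipogenic tissues whose transcript responds to thyroid hormone and carbohydrate (ENSMUSG00000035686, chromosome 7, 97062145 to 97066937, minus strand). It held 732, 564 and 563 CPM at Pre, 155, 240 and 196 at WL1, and 382, 379 and 385 at WL2. The WL2 libraries lay between the other phases with little spread, the highest being 1.02 times the lowest. *Thrsp* fell by 1.65 ± 0.17 on the log2 scale at WL1 (adjusted p = 0.000666) and rose by 0.95 ± 0.17 from WL1 to WL2 (adjusted p = 0.0182), remaining 0.70 ± 0.16 below Pre (log2 fold change -0.70, adjusted p = 0.0246). The last of these calls was lost without Pre replicate 1 (-0.56, adjusted p = 0.0725) and without WL2 replicate 1, 2 or 3 (-0.70, -0.69 and -0.70, with adjusted p of 0.0607, 0.0945 and 0.08). The rise from WL1 to WL2 was 0.97, 0.96 and 0.95 without WL1 replicate 3, WL2 replicate 2 and WL2 replicate 3, where the adjusted p was 0.0736, 0.0854 and 0.0719.

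*Pnpla3* encodes a lipid droplet protein of the patatin-like phospholipase family, whose transcript is known to rise with feeding (ENSMUSG00000041653, chromosome 15, 84052038 to 84071437, plus strand). Its level was 351, 225.5 and 346 CPM at Pre, 59.6, 72.4 and 65.9 at WL1 and 72.7, 100.4 and 101.5 at WL2. The lowest WL2 library was just above the highest WL1 library, and all 6 were below every Pre library. The log2 fold change was -2.22 ± 0.20 at WL1 (adjusted p = 0.000347) and -1.75 ± 0.19 at WL2 (adjusted p = 0.000417). The difference between WL2 and WL1 was 0.47 ± 0.19 and did not pass (adjusted p = 0.181).

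Compared per length on deposited FPKM, *Thrsp* was the most abundant member in each phase by its mean, with 266 FPKM at Pre, 83.4 at WL1 and 164 at WL2. At Pre it was followed by *Fasn* (227), *Pnpla3* (187), *Slc25a1* (155.5), *Acly* (53.5), *Aacs* (37.7), *Acss2* (10.7), *Acaca* (7.14) and *Acacb* (6.40). The ranges of neighbouring members overlapped from *Thrsp* through *Slc25a1* and for *Acaca* and *Acacb*, and were separate elsewhere. At WL1 the order was *Thrsp*, *Slc25a1* (60.0), *Fasn* (43.5), *Pnpla3* (39.5), *Acly* (33.5), *Aacs* (16.7), *Acacb* (8.53), *Acaca* (3.96) and *Acss2* (2.91), with overlap of *Fasn* with *Slc25a1* and with *Pnpla3*. At WL2 *Fasn* (27.6) had dropped to the fifth place, below *Slc25a1* (66.3), *Pnpla3* (55.6) and *Acly* (31.4), although its range overlapped with those of *Acly* and of *Aacs* (23.5). The last 3 places at WL2 went to *Acacb* (11.2), *Acaca* (5.69) and *Acss2* (2.95). FPKM divides by the deposited gene lengths, which were 9632 bases for *Acacb*, 17074 for *Acaca* and 10163 for *Acss2*. How these lengths were derived is not given, and the order of the members and their ranks depend on them. Among protein-coding genes, *Fasn* ranked 171 by mean FPKM at Pre, 1009 at WL1 and 1570 at WL2, and *Thrsp* ranked 138, 470 and 193.

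**Figure D3:**
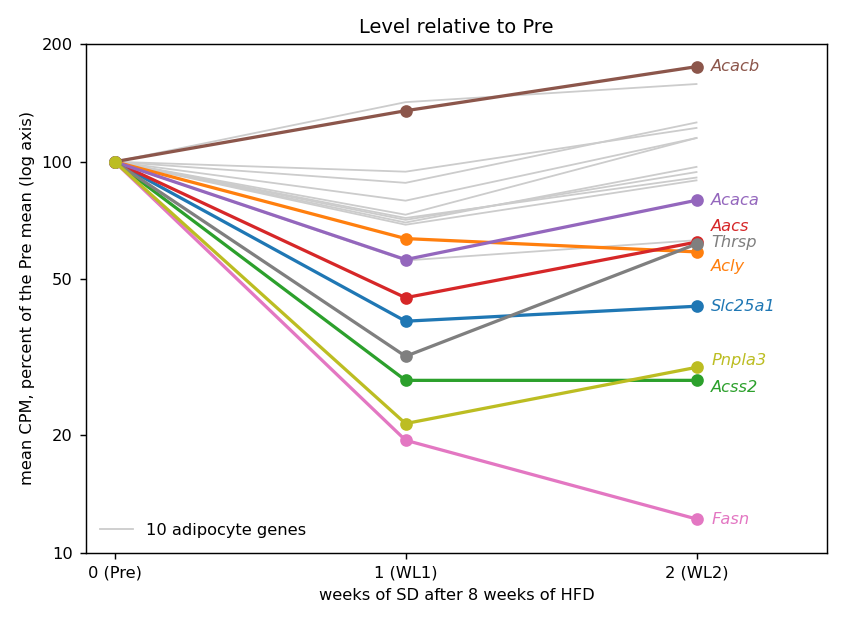
Mean CPM of each member (coloured) and of 10 adipocyte genes (grey) as a percent of its mean at Pre, on a log axis, against weeks of SD. At 2 weeks *Fasn* stands at 12.2% and *Acacb* at 175%, while *Thrsp* went from 31.8% to 61.6%.

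In the second week *Thrsp* and *Acaca* rose. Of the 9 members, 2 passed the test at WL2 against WL1, where 1.31% of all genes rose, 2.37% fell and 3.68% were called in either direction: *Thrsp*, with the values given above, and *Acaca*, by 0.50 ± 0.12 on the log2 scale (adjusted p = 0.0456). *Acacb*, *Aacs* and *Pnpla3* were also higher in every WL2 library than in any WL1 library without passing, so that 5 of 9 members did not overlap between these phases, against 30.3% of all genes. *Acly*, *Acss2* and *Slc25a1* differed by -0.11 ± 0.12, 0.00 ± 0.16 and 0.13 ± 0.12, with overlapping libraries. The call of *Acaca* rested on single libraries. Leaving out Pre replicate 1 or 3 gave an adjusted p of 0.0539 or 0.0603. Leaving out each WL1 library gave 0.0618, 0.108 and 0.159, and leaving out WL2 replicate 2 or 3 gave 0.191 or 0.168. The log2 fold change was then 0.43 to 0.58. The count of members called was 0 without WL1 replicate 3, WL2 replicate 2 or WL2 replicate 3. In those fits 0.707%, 0.202% and 0.55% of all genes were called, against 3.68% with all libraries, so calls were lost over all genes as well. The count was 1 without Pre replicate 1, Pre replicate 3 or WL1 replicate 2.

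Adipocyte genes moved over the same weeks. Of the 10 in the list, 9 were lower at WL1 than at Pre (2 past the test), with a median log2 fold change of -0.46, and all 10 were higher at WL2 than at WL1 (1 past the test), with a median of 0.39. *Adipoq*, which encodes adiponectin, differed by -0.45 ± 0.18 at WL1 (adjusted p = 0.165), and *Plin1*, the coat protein of the adipocyte lipid droplet, fell by 0.52 ± 0.13 (adjusted p = 0.04), a call lost on leaving out any 1 library except WL2 replicate 1 (adjusted p up to 0.124). On a scale set to the adipocyte list, 7 of 9 members were called at WL1 against Pre, where 10.2% of all genes were. The median of all genes was then 0.357, with 1631 called higher and 253 lower. There *Acaca* (-0.50, adjusted p = 0.0674) and *Acly* (-0.33, adjusted p = 0.277) did not pass, and *Acacb* passed upward (0.77, adjusted p = 0.0238). Between WL1 and WL2 the median of all genes on that scale was -0.412, with 93 called higher and 3301 lower. On that scale *Fasn* fell between WL1 and WL2 by 1.11 (adjusted p = 0.0357), *Acaca* differed by 0.10 (adjusted p = 0.664) and *Acacb* by -0.03, a change of sign. On it *Thrsp* rose by 0.55 (adjusted p = 0.0477), and no other member passed upward. Macrophage genes had a median of 0.64 at WL1 against Pre (8 of 10 higher, 0 past the test) and -0.76 at WL2 against WL1 (8 of 10 lower, 0 past the test). Genes of a hepatocyte list were also lower on SD, with 7 of 8 below Pre at WL1 (median -0.58) and 8 of 8 at WL2 (median -2.99). That count and median at WL2 include *Fgb*, *Ttr* and *Apoa1*, which held at most 0, 0.347 and 0.463 CPM in any WL2 library. They passed the filter of 0.5 CPM only through libraries of Pre or WL1, which fixed their direction at WL2, and none was called. The summed level of the list was 532 to 692 CPM at Pre, 42.4 to 142 at WL1 and 231 to 440 at WL2, and 1 of the 8 genes had no read in any WL2 library. *Cyp2e1* alone held 478 to 599, 38.2 to 63.4 and 226 to 431 CPM, so the sums at Pre and WL2 were mostly this gene. Past the test were *Cyp2e1* at WL1 (-3.38, adjusted p = 0.000262), which adipose tissue also expresses, and *Serpina1a* and *Hpx* at WL2 (-2.95 and -1.84, adjusted p = 0.00816 and 0.0456). From WL1 to WL2 *Cyp2e1* rose by 2.71 (adjusted p = 0.00214). *Cyp2e1*, *Serpina1a* and *Hpx* were named after their values were seen. *Alb*, the liver's albumin, was at 7.13, 33.5 and 62.8 CPM at Pre, 47.6, 1.61 and 5.06 at WL1 and 3.06 to 5.44 at WL2. Mesothelium genes were lower at WL1 than at Pre in 6 of 6 (median -0.90) and higher at WL2 than at WL1 in 6 of 6 (median 1.84), with 0 past the test in either. Their sums were 37.3 to 366, 44.3 to 218 and 233 to 658 CPM at Pre, WL1 and WL2. The part of these cell types in the results was not tested.

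**Figure D4:**
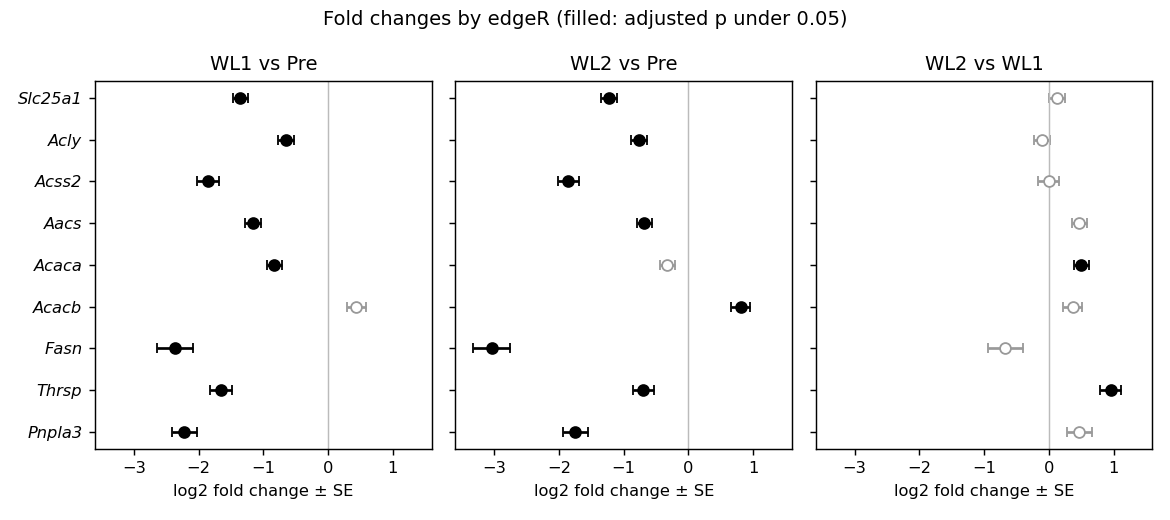
Log2 fold change ± SE of each member in the 3 comparisons, from edgeR, filled where the adjusted p was under 0.05. Filled points number 8, 8 and 2 of 9, with *Acacb* the only one to the right of 0 in the first 2 panels.

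The genes around the pathway were read from lists. Counts of genes that fell or rose are of those past the test. At WL1 against Pre 4.69% of all genes fell and 2.6% rose, and at WL2 against Pre 6.66% fell and 3.35% rose. No list was tested as a set. NADPH is the reductant that *Fasn* consumes. The list for its supply had 9 genes, of which 8 were tested. It held enzymes that make NADPH and others of the pentose phosphate pathway that do not, such as *Taldo1*. At WL1 against Pre 4 fell and 0 rose, with a median of -0.49, and at WL2 5 fell and 0 rose. Malic enzyme, *Me1*, fell 2.14-fold at WL1 (log2 fold change -1.10 ± 0.13, adjusted p = 0.00117) and was 2.03-fold below Pre at WL2 (adjusted p = 0.000813). *Pgd*, of the pentose phosphate pathway, fell by 0.63 ± 0.12 at WL1 (adjusted p = 0.0122), by 1.23 ± 0.12 at WL2 against Pre (adjusted p = 0.000154) and by 0.60 ± 0.12 between WL1 and WL2 (adjusted p = 0.025). The last of these calls was lost without WL1 replicate 2 or 3 or WL2 replicate 2 or 3 (adjusted p up to 0.143). *G6pdx*, the NADPH-making first enzyme of that pathway, did not pass at WL1 (0.09, adjusted p = 0.651) or at WL2 against Pre (-0.22, adjusted p = 0.231). *Taldo1*, from the same pathway, fell by 0.74 at WL1 and at WL2 (adjusted p = 0.0181 and 0.0132). *Taldo1* did not pass at WL1 without Pre replicate 1, WL1 replicate 1 or WL1 replicate 2, or at WL2 without WL2 replicate 2 or 3 (adjusted p up to 0.0635 and 0.0607). On the adipocyte scale the WL1 calls of *Pgd* (-0.28, adjusted p = 0.307) and *Taldo1* (-0.38, adjusted p = 0.172) were lost.

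Desaturation and elongation, which modify the palmitate made by *Fasn*, had 15 tested genes. Of them 5 fell and 0 rose at WL1, and 5 fell and 0 rose at WL2, with medians of -0.36 and -0.68. *Scd3*, *Scd4*, *Elovl3* and *Elovl7*, none of them called, had only 6 to 55 reads per phase. *Scd4* passed the filter only through Pre, with at most 0.271 and 0.396 CPM at WL1 and WL2. The WL1 median is the value of *Elovl3*, so the medians partly reflect genes with few reads. *Scd2*, a stearoyl-CoA desaturase, fell 4.83-fold at WL1 (log2 fold change -2.27 ± 0.18, adjusted p = 0.000262) and 9.78-fold at WL2 (-3.29 ± 0.19, adjusted p = 1.25e-05). Like *Fasn* it was lower at WL2 than at WL1, and its difference of -1.02 ± 0.17 passed (adjusted p = 0.0177), though not without WL1 replicate 3 or WL2 replicate 2 (adjusted p up to 0.107). *Scd1* fell by 1.47 ± 0.21 at WL1 (adjusted p = 0.00382). At WL2 its difference from Pre was -0.69 ± 0.21 and did not pass (adjusted p = 0.0643). Unlike *Scd2*, it was higher in every WL2 library than in any WL1 library, by 0.78 ± 0.21, without passing (adjusted p = 0.0672). The elongase *Elovl6*, which extends palmitate, fell by 1.01 ± 0.23 at WL1 (adjusted p = 0.0311, up to 0.0984 without Pre replicate 1 or 3 or any WL1 replicate) and by 1.57 ± 0.24 at WL2 (adjusted p = 0.00272). *Hsd17b12*, of the elongation cycle, fell by 0.51 ± 0.11 at WL1 (adjusted p = 0.0236) and by 0.74 ± 0.11 at WL2 (adjusted p = 0.00252). On the adipocyte scale the WL1 call of *Elovl6* was lost (-0.68, adjusted p = 0.125).

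Carbon supply to citrate, with 16 of 17 listed genes tested, moved in both directions, with 8 genes down and 3 up at WL1 and 3 down and 2 up at WL2. The genes that rose were regulators of pyruvate dehydrogenase. *Pdk4*, a kinase that switches the enzyme off, rose 3.22-fold at WL1 (log2 fold change 1.69 ± 0.25, adjusted p = 0.00453) and stood 2.57-fold above Pre at WL2 (adjusted p = 0.00794). *Pdk2*, a second kinase, rose 1.86-fold at WL2 against Pre (adjusted p = 0.00354) and 1.73-fold against WL1 (adjusted p = 0.0213). The latter call was lost without WL1 replicate 2 or 3 or WL2 replicate 2 or 3 (adjusted p up to 0.105). *Pdk1* and the phosphatase *Pdp1* rose at WL1 by 0.53 and 0.48 (adjusted p = 0.0303 and 0.0363), calls lost on leaving out 5 and 7 of the 9 libraries (adjusted p up to 0.101 and 0.122). The mitochondrial pyruvate carrier gene *Mpc2* fell by 0.91 ± 0.15 at WL1 (adjusted p = 0.00679) and by 0.93 ± 0.15 at WL2 (adjusted p = 0.00345). Its partner *Mpc1* fell by 0.63 at WL1 (adjusted p = 0.0427), a call lost on leaving out 8 of the 9 libraries (adjusted p up to 0.132). On the adipocyte scale *Mpc1* (-0.28, adjusted p = 0.254) and the difference of *Pdk2* between WL1 and WL2 (0.39, adjusted p = 0.0903) did not pass.

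Among 19 genes that control lipogenic transcription, 4 fell and 1 rose at WL1, and 3 fell and 1 rose at WL2, while the median stayed near 0 (-0.12 and -0.02). *Srebf1*, which encodes SREBP-1, fell 1.89-fold at WL1 (log2 fold change -0.92 ± 0.12, adjusted p = 0.00171) and 1.84-fold at WL2 (adjusted p = 0.00111). *Insig1*, which retains the SREBP escort protein in the endoplasmic reticulum and is itself an SREBP target, fell 2.13-fold at WL1 (adjusted p = 0.0121) and 4.03-fold at WL2 (adjusted p = 0.000254). Its further fall of 0.92 ± 0.20 between WL1 and WL2 (adjusted p = 0.0363) was lost without any 1 WL1 library or WL2 replicate 2 or 3 (adjusted p up to 0.178). *Insig2* rose by 0.37 at WL2 against Pre and by 0.50 against WL1 (adjusted p = 0.0443 and 0.0278), with the calls lost on leaving out 8 and 5 of the 9 libraries (adjusted p up to 0.14 and 0.122). *Rxra*, a nuclear receptor partner, fell by 0.52 at WL1 (adjusted p = 0.0257) and by 0.61 at WL2 (adjusted p = 0.00905). *Nfya*, a subunit of the factor that binds CCAAT, rose by 0.61 at WL1 (adjusted p = 0.0288), a call lost without Pre replicate 1 or any WL1 library (adjusted p up to 0.0994). On the adipocyte scale the WL1 call of *Insig1* was lost (-0.72, adjusted p = 0.0502), as were both calls of *Insig2* (0.29 and 0.10, adjusted p = 0.311 and 0.635).

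Of 11 genes that act on acetyl-CoA carboxylase, 2 fell at WL1 and 1 fell and 1 rose at WL2. These counts are too small to set the list apart from the share of all genes. *Mid1ip1*, a relative of *Thrsp* that promotes assembly of the carboxylase, fell by 0.69 ± 0.12 at WL1 (adjusted p = 0.00986) and by 0.61 ± 0.12 at WL2 (adjusted p = 0.0109, 0.0519 without WL2 replicate 3). Of the catalytic subunits of AMP-activated kinase, which inhibits the carboxylase, *Prkaa2* fell by 0.94 ± 0.19 at WL1 (adjusted p = 0.0169, up to 0.063 without any 1 WL1 library) and *Prkaa1* rose by 0.45 ± 0.10 at WL2 (adjusted p = 0.0212, up to 0.106 without Pre replicate 1 or WL2 replicate 2). On the adipocyte scale none of these 4 calls passed: *Mid1ip1* was at -0.34 and -0.69 (adjusted p = 0.216 and 0.0515), *Prkaa2* at -0.62 (adjusted p = 0.104) and *Prkaa1* at 0.37 (adjusted p = 0.203). Between WL1 and WL2 edgeR called 0 of these 11 genes, with 1 at an unadjusted p under 0.05 and 1 by DESeq2.

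Genes of ketone body and acetate use numbered 12, of which 3 fell in each comparison with Pre. *Hmgcs1*, of sterol synthesis, fell 1.99-fold at WL1 and 3.02-fold at WL2 (adjusted p = 0.0087 and 0.000357). *Acat2*, the cytosolic thiolase, fell 2.2-fold at WL1 (adjusted p = 0.00184) and was 1.6-fold below Pre at WL2 (adjusted p = 0.0147). *Oxct1*, which lets mitochondria use ketone bodies, fell 1.57-fold at WL1 (adjusted p = 0.00764) and 1.67-fold at WL2 (adjusted p = 0.0022). Mitochondrial fatty acid synthesis, a separate pathway that makes the lipoate precursor, had 9 tested genes, of which 3 fell at WL1 and 1 at WL2. The count at WL2 is near the share of all genes, of which 10% were called in either direction. *Mecr*, its reductase, fell by 0.85 ± 0.10 in both (adjusted p = 0.00144 and 0.000761), while *Acsf3* and *Ndufab1* fell by 0.53 and 0.48 at WL1 (adjusted p = 0.0367 and 0.0339), calls lost on leaving out 7 and 5 of the 9 libraries (adjusted p up to 0.113 and 0.112). On the adipocyte scale the WL1 calls of *Hmgcs1* (-0.66, adjusted p = 0.0593), *Mecr* (-0.51, adjusted p = 0.0596), *Acsf3* (-0.19, adjusted p = 0.423) and *Ndufab1* (-0.14, adjusted p = 0.526) were lost. Between WL1 and WL2, 0 genes of either list were called by edgeR. At an unadjusted p under 0.05 there were 5 in ketone body and acetate use and 0 in mitochondrial fatty acid synthesis, and DESeq2 called 3 and 0.

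**Figure D5:**
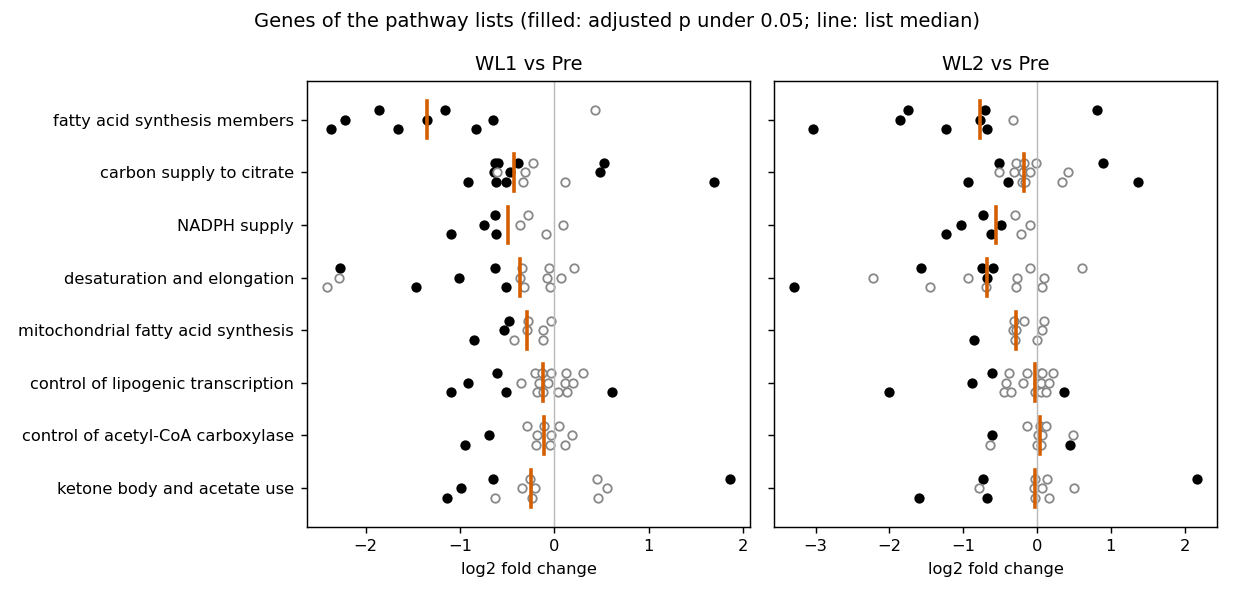
Log2 fold change of every tested gene of the members and of 7 pathway lists at WL1 and WL2 against Pre (filled where the adjusted p was under 0.05, with a line at the list's median). The median of the members lies at -1.35 and -0.77, below that of each other list in both panels.

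The protein-coding genes whose log2 CPM followed the mean of the members most closely over the 9 libraries, of 13047 compared, were *Adk* (adenosine kinase, Pearson r = 0.990), *Chpt1* (a choline phosphotransferase, 0.989), *C6* (a complement component, 0.988), *Dolk* (dolichol kinase, 0.985) and *Cavin3* (a caveola coat protein, 0.985). The points share the 3 phases and their library scaling. These genes stood 0.91 to 2.72 below Pre on the log2 scale at WL1 and 0.68 to 2.40 below it at WL2. Among the members themselves, *Pnpla3* followed the mean of the group most closely (r = 0.988) and *Acacb* ran against it (r = -0.723), each being 1 of the 9 genes in that mean.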

How the data were processed

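RNA of whole epididymal adipose tissue was sequenced in 9 libraries, 3 at each of Pre, WL1 and WL2, grouped by their labels. The authors deposited whole-number read counts per gene without normalization, and FPKM (fragments scaled by gene length and library total) of the same libraries. The submitters' processing notes name HISAT2, HISAT, TopHat2, CASAVA, GRCm38 and mm10, with no versions or roles. No source used here gives the counting program, the strand setting or the annotation. Only 1524 genes of the deposited table have the coordinates of GENCODE M21 on GRCm38, none of them a member, so gene coordinates were copied from that table and no build is named for them. In GENCODE M21 *Fasn* lies at 120805846 to 120824547. The gene coordinates given for the members thus cannot be set against the promoter windows, which are on GRCm38.p6. Divided by the summed counts, the library total that the FPKM imply was 0.995 to 1.01 at Pre, 1.07 to 1.11 at WL1 and 1.11 to 1.12 at WL2, so that FPKM levels carry another scaling than CPM. Columns that matched no sample numbered 0.

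Genes that reached 0.5 CPM in 1 or more libraries were tested with edgeR 4.0.16 in R 4.3.3 (glmQLFit and glmQLFTest, TMM factors, 1 model over 9 libraries without covariates, common dispersion 0.0478). P-values were adjusted by Benjamini-Hochberg over all genes tested, and log2 CPM used a prior count of 4. SE is the absolute log2 fold change divided by the square root of F. Of the pathway lists, *Pc* and *Hsd17b8* had no row by symbol and *Nnt* several, so these were left out. Alternatives dropped the filter or required 0.5 CPM in 3 libraries, and used DESeq2 1.42.0, RLE or upper quartile factors, library totals, scaling to 10 adipocyte genes, the replicate number as a block, the compared phases alone, limma 3.58.1 on log2(FPKM + 1) and log2(FPKM + 0.1), and leaving out each library in turn. The steps were tested on simulated data. Within a phase, no pair of libraries was as alike as sampling noise would make them (chi-square per degree of freedom 9.88 to 53.8). Named genes are the 9 members, the 3 genes of each list with the largest change among those past the threshold and any past it against the majority, the 5 genes most alike the members, and *Adipoq*, *Plin1* and *Alb*. A result that this rule names is not reported here. *Gss* was named for its overlap. *G6pdx* and the genes named for their low counts were added after values were seen. The ratio of the carboxylases and the 4 promoter windows printed, of the 9 members' windows, were also chosen after values were seen. The members and lists were chosen with earlier results of these data known.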

Additional observations from a re-analysis of the deposited data

How the results depend on the processing

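Each fold change of the 9 members was recomputed under 20 alternatives. The direction and the side of the threshold held in 176 of 180 recomputed values at WL1 against Pre, 175 of 180 at WL2 against Pre and 152 of 180 at WL2 against WL1, with 0, 0 and 7 reversals of sign. The members called numbered 8 at WL1 against Pre and ranged from 7 to 8 on leaving out each library in turn. At WL2 against Pre they numbered 8 and ranged from 7 to 8. At WL2 against WL1 they numbered 2 and ranged from 0 to 3, with 1 by limma on log2(FPKM + 1) and 1 on log2(FPKM + 0.1). All reversals were at WL2 against WL1, in members that had not passed. *Acss2* went from 0.00 to -0.0034 with no filter, -0.40 on the adipocyte scale, and -0.0605, -0.0027 and -0.0297 without WL1 replicate 1, WL1 replicate 3 and WL2 replicate 2, and ranged from -0.0605 to 0.0923 on leaving out each library. *Acacb* and *Slc25a1* went to -0.0285 and -0.29 on the adipocyte scale. That scale shifted all genes, with a median of -0.412, so the changes of sign there are not particular to these members. Of 940 recomputed values of 47 called pathway and adipocyte fold changes, 807 passed in the same direction and 0 reversed. Of 420 recomputed counts of the 7 pathway lists, 79 moved by over 1.5 times.

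The replicate number does not pair the samples. Deviations from the phase means of same-numbered samples correlated between -0.277 and 0.107, and not every sample correlated best with its own number. With the replicate number as a block, the members called numbered 8, 7 and 1 in the 3 comparisons, and all genes called 844, 1400 and 330 against 1350, 1853 and 681.

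All genes called by DESeq2 numbered 2344, 2717 and 1935. At WL2 against WL1 they numbered 1668 with no filter, 1051 with the compared phases alone, and 37 to 1351 on leaving out each library in turn, with 262, 176 and 130 without WL1 replicate 1, 2 and 3 and 37 and 101 without WL2 replicate 2 and 3, and 1102 and 1351 without Pre replicate 2 and WL2 replicate 1. At WL1 against Pre they were 562 leaving out Pre replicate 1 and 600, 674 and 512 leaving out the WL1 libraries, and for Pre and WL2 743 and 966 leaving out WL2 replicate 2 and 3. With library totals the median of all genes shifted by up to 0.158 and on the adipocyte scale by up to 0.412 downward. Each member had at least 536 reads in every library, and the 3 libraries per phase limit the precision.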
